A study of Saccharomyces cerevisiae with 8 samples.

Results

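The sites described here are places in the yeast transcriptome that came through the purification of tagged Pho92 even though the cells had not been irradiated. Touching same-strand peaks of the pair of no-UV libraries were joined, and a joined region was kept where it held a peak of both libraries and lay outside contig NCSL01000092.1. This gave 503 sites out of 4774 joined regions outside that contig, and out of 107088 regions in the whole series. A further 41 regions with a peak of both no-UV libraries lay on the contig left out. The rule set no minimum score. The sites were chosen by the no-UV lists themselves, so the no-UV values below describe the choice and carry no test.

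Pho92 is the YTH-domain reader of N6-methyladenosine (m6A) in budding yeast, and Ime4 is the methyltransferase that writes this mark on transcripts during meiosis. In CRAC, ultraviolet light joins a tagged protein to the RNA it touches, the protein is purified under denaturing conditions, and the attached RNA is sequenced. A library from cells that were not irradiated and a library from cells without the tag are the usual controls for RNA that comes through the purification without a crosslink or without the protein.

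All 8 libraries came from diploid meiotic yeast of the SK1 strain carrying pCUP-IME1, in which copper switches on IME1, the master regulator of meiotic entry. Cells received 50 μM copper sulfate after 2 h in sporulation medium and were taken at 5 h. The 4 groups of 2 libraries were the Pho92-HTP ime4 mutant with UV (254 nm, 80 s), Pho92-HTP with UV, Pho92-HTP without UV, and untagged WT with UV; HTP is an affinity tag. The labels do not name the ime4 allele or say whether a strain was a single clone, and no untagged library without UV is among the 8. Every value below is a normalized score, which is the deposited peak score (squared height divided by width) scaled to a fission yeast spike-in. A value of 0 means that no peak was listed, which can also happen on the shoulder of a stronger neighbour.

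The no-UV lists held 2925 and 2462 peaks with summits that added up to 421065 and 334161 read equivalents. The sums were 1.69e+06 and 2.19e+06 in the ime4 mutant, 2.87e+06 and 1.29e+06 in Pho92-HTP with UV, and 53223 and 35058 in untagged cells. The deposited lists and the deposited normalization table disagree on the controls. The lists scale the no-UV libraries by 0.428 and 0.746 and the untagged libraries by 1.13 and 0.771, and the table gives these pairs the other way round. The lists' factors were used. The other libraries were scaled by 1.73 and 1.01 in the ime4 mutant and by 1 and 5.92 in Pho92-HTP with UV. At these factors the score of 0.9, above which the authors count a peak, stood at 308 and 234 read equivalents for a 32-nt peak in the no-UV libraries.

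The 503 sites fell into a small strong set and a large weak one. The mean no-UV score was 90 or more at 19 sites, between 0.9 and 90 at 8 sites, and below 0.9 at 476 sites. These bounds were set after the values were seen, and the nearest scores on either side of the main gap were 73.4 and 4.32, with 20 sites above it. The median summit in the no-UV libraries was 8507 and 6625 read equivalents at the 19 strong sites, against 6.0 and 4.38 at the 476 weak sites. At 24 sites both no-UV peaks were no higher than 1 read, and at 278 sites both were no higher than 10 reads, so for most sites the no-UV level rests on few reads. Only 24 of the 503 sites scored above 0.9 in both no-UV libraries, whereas 231 did so in both libraries of Pho92-HTP with UV.

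The 19 strong sites made up most of what was recovered without UV. Outside contig NCSL01000092.1 they carried 94.4% and 94.8% of all summit heights in the no-UV libraries. Their share was 26.9% and 22.3% in the ime4 mutant, 9.92% and 14.99% in Pho92-HTP with UV, and 32.9% and 33.0% in untagged cells. All 503 sites together carried 60.9% and 52.1% in the ime4 mutant, 35.5% and 44.3% in Pho92-HTP with UV, 98.1% and 98.0% without UV, and 49.9% and 46.9% in untagged cells. The sites were picked by their no-UV peaks, so the largest share falling in the no-UV libraries is part of the choice. The size of the shares also depends on leaving out the contig. Over all heights the strong sites held 17.96% and 12.42% in the ime4 mutant and 6.92% and 10.91% in Pho92-HTP with UV. In untagged cells they then held 11.03% and 12.29%.

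**Figure D1:**
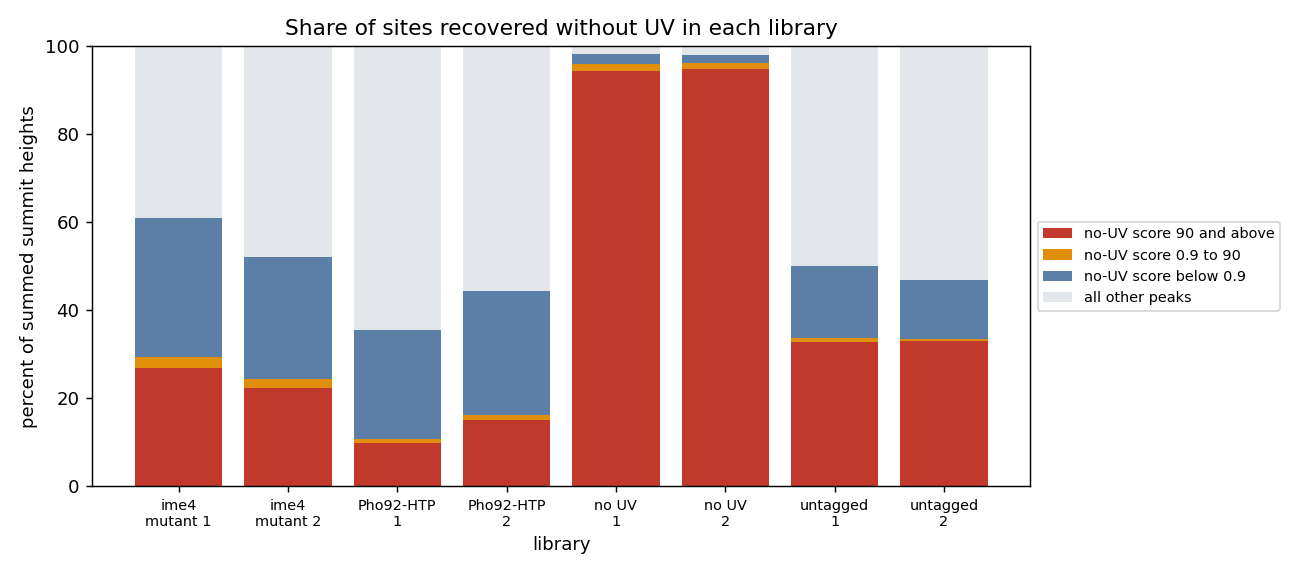
Share of the summed summit heights (percent, y axis, peaks on contig NCSL01000092.1 left out) taken by the strong, middle and weak sites and by all other peaks in each of the 8 libraries (x axis). The 19 sites with a no-UV score of 90 and above fill 94.4% and 94.8% of the no-UV bars and 9.92% and 14.99% of the bars of Pho92-HTP with UV.

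The strongest site, NCSL01000010.1:76774-76805 on the plus strand, alone held 41.2% and 33.8% of all summit heights in the no-UV libraries. It scored 540718 and 261954 in the ime4 mutant, 139280 and 423189 in Pho92-HTP with UV, 294379 and 217856 without UV, and 265 and 109 in untagged cells. Its no-UV values lay inside the range of the Pho92-HTP values with UV, and the untagged values lay far below all the others. It was also the site with the highest untagged score.

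The next sites came as near-equal pairs on different contigs or on the same one. NCSL01000002.1:149968-149999 on the plus strand scored 39748 and 19311 in the ime4 mutant, 9595 and 28260 in Pho92-HTP with UV, 5436 and 18148 without UV, and 3.41 and 1.00 in untagged cells. NCSL01000001.1:445225-445256 on the plus strand scored 38582 and 18548 in the ime4 mutant, 9067 and 28994 in Pho92-HTP with UV, 5669 and 17651 without UV, and 3.43 and 0.655 in untagged cells. Both were also the next highest in untagged cells. In normalized scores replicate 2 was about 3 times replicate 1 at both, in Pho92-HTP with UV and also without UV. This likeness depends on the scaling. In raw scores with UV, replicate 2 was the lower (4774 against 9595, and 4898 against 9067). Without UV it was the higher in raw scores too (24311 against 12695, and 23645 against 13240).

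A second pair lay on one contig, at NCSL01000009.1:88258-88289 and NCSL01000009.1:347149-347180, both on the minus strand. The first of these scored 9346 and 4878 in the ime4 mutant, 3289 and 8350 in Pho92-HTP with UV, 4558 and 4975 without UV, and 1.73 and 0.496 in untagged cells. The other scored 8900 and 4500 in the ime4 mutant, 3141 and 7098 in Pho92-HTP with UV, 4476 and 4648 without UV, and 1.39 and 0.497 in untagged cells. Here the no-UV libraries lay close together and inside the range with UV.

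The other sites among the 10 strongest were NCSL01000011.1:300989-301020, NCSL01000054.1:27327-27358, NCSL01000022.1:138631-138662 and NCSL01000016.1:119530-119561 on the minus strand and NCSL01000001.1:119068-119099 on the plus strand. The strongest of these 5, NCSL01000011.1:300989-301020, scored 4110 and 1303 in the ime4 mutant, 647 and 2132 in Pho92-HTP with UV, 1658 and 1835 without UV, and 0.887 and 0.332 in untagged cells. The weakest, NCSL01000016.1:119530-119561, scored 2527 and 756 in the ime4 mutant, 287 and 1373 in Pho92-HTP with UV, 688 and 748 without UV, and 0.700 and 0.274 in untagged cells. At each of these the no-UV values lay between the pair of values with UV, and every untagged value was below 1.

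Pairs and small groups of this kind ran through the strong set. With a tolerance of 0.5 on the log2 scale in each of the 6 libraries of tagged cells, which was chosen after the values were seen, 13 of the 19 strong sites fell into 5 groups of near-equal profile. Counting each group once left 11 profiles. The largest group had 4 sites on 4 contigs, NCSL01000031.1:84015-84046, NCSL01000005.1:195067-195098, NCSL01000029.1:132359-132390 and NCSL01000052.1:60288-60319, all on the minus strand. They scored 564 to 658 and 329 to 337 in the ime4 mutant, 167 to 191 and 460 to 483 in Pho92-HTP with UV, 379 to 395 and 412 to 432 without UV, and 0.0501 to 0.0870 and 0.0105 to 0.0249 in untagged cells. Whether such sites are copies of one sequence, among which the same reads were shared out, was not tested, since an SK1 genome was not used here; the number of independent strong sites may therefore be nearer to 11 than to 19.

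**Figure D2:**
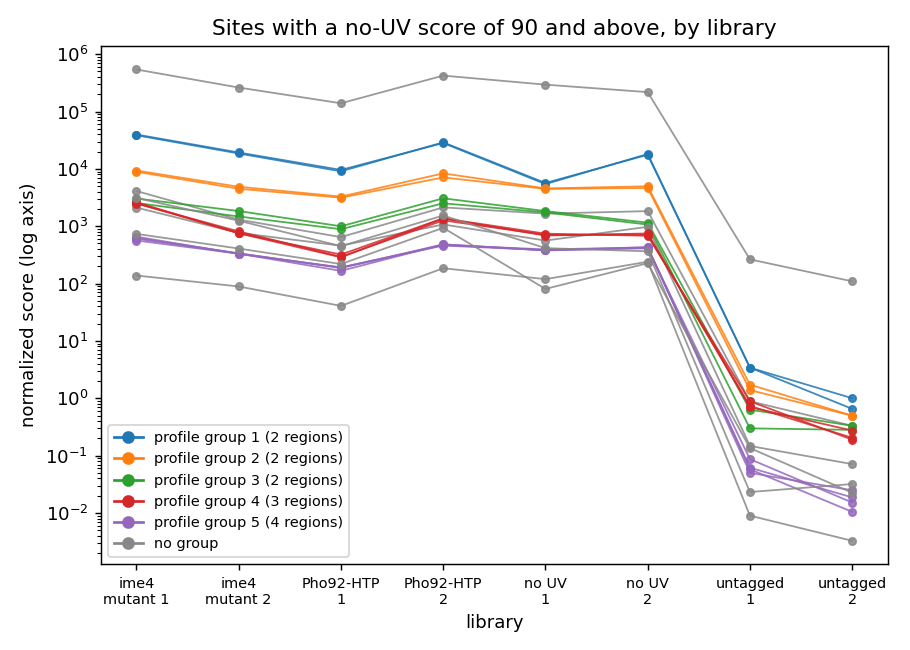
Normalized score (y axis, log scale) of each of the 19 strong sites in the 8 libraries (x axis); lines join the values of one site, and colours mark the 5 groups of near-equal profile. The lines stay within one band across the 6 libraries of tagged cells and drop in the untagged libraries, where the highest value is 265.

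The strong sites also shared a narrow shape. Their width in the lists was 31 nt at 17 of 19, against 5 of the 8 middle sites, 13 of the 476 weak sites and 9755 of all 107088 regions. The median width was 31 nt for the strong sites and 43 nt for the weak ones. Of the 19, none had another strong site within 1000 nt on its strand, and none had a listed peak on the opposite strand in any library.

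The first comparison asked how far each site depended on irradiation. At the strong sites the normalized scores with and without UV overlapped. Their median was 449 and 1375 in Pho92-HTP with UV and 707 and 748 without UV, and the median log2 difference between the group means, with UV minus without, was -0.08, with a range of -0.96 to 1.75. The 2 libraries of each group overlapped at 18 of the 19 strong sites. Without UV, the score was a median of 89.1% of that with UV, from 26.6% to 159%. These differences have no test, because the no-UV values chose the sites, and they move with the scaling. The median was -0.80 with the factors of the authors' table, -2.19 with raw scores and -6.91 when each library was scaled to its own total. It was 0.81 without Pho92-HTP replicate 1 and -0.86 without Pho92-HTP replicate 2, so its sign rests on which of these libraries is used. The overlap also depends on the scaling. In raw scores both no-UV libraries were above both libraries with UV at most strong sites. The strongest had 687540 and 291840 without UV, against 139280 and 71484 with UV. An exception was NCSL01000041.1:29787-29818, with 188 and 304 without UV, against 219 and 158 with UV.

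Away from the strong sites, normalized scores were higher with irradiation at most sites. The 8 middle sites had medians of 11.03 and 26.0 in Pho92-HTP with UV, against 1.70 and 0.967 without UV. All 8 were higher with UV in both libraries, by a log2 difference of 2.30 to 10.99 (median 2.69). This separation depends on the scaling. In raw scores the pairs overlapped at several of them, such as NCSL01000031.1:48201-48231, with 15.8 and 6.98 with UV and 6.06 and 8.10 without. They stayed apart at NCSL01000009.1:300850-300880 (20.9 and 8.61 against 6.16 and 7.03) and at NCSL01000037.1:32-70 (1582.5 and 722 against 3.89 and 1.32). The weak sites had medians of 0.555 and 1.007 with UV, against 0.000337 and 0.000319 without UV, with a median log2 difference of 10.49. From the top class of weak sites (0.09 to 0.9) to the bottom class (below 0.00009), each a 10-fold step, the class medians were 9.75, 10.28, 10.65, 10.76 and 9.85.

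Counted by site, both libraries of Pho92-HTP with UV were above both no-UV libraries at 379 of 503 sites, namely 1 strong, 8 middle and 370 weak sites. Over all 29619 regions listed in at least 2 of these 4 libraries the share above was 94.8%. Both libraries with UV were below both without at 32 sites, all of them weak, where the share over all regions was 0.115%. The groups overlapped at the other 92. The count of 32 was 58 without Pho92-HTP replicate 1 and 85 without replicate 2. The rule used these lists, so nothing is read from the gap between the sites and the background. Without UV the score was at least 50% of that with UV at 33 sites, of which 17 were strong, between 10% and 50% at 29, between 1% and 10% at 40, and below 1% at 377.

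**Figure D3:**
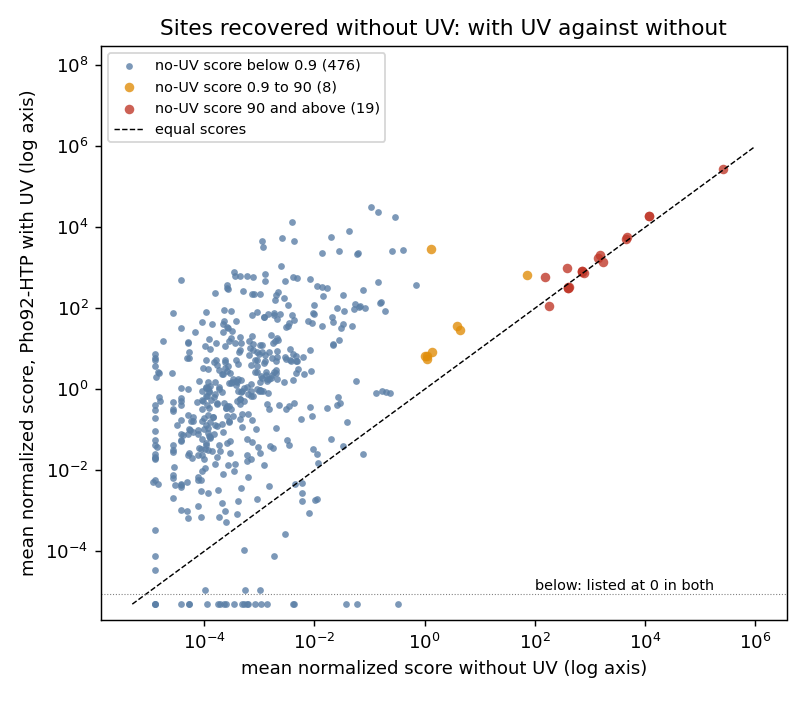
Mean normalized score of each of the 503 sites in Pho92-HTP with UV (y axis, log scale) against the mean without UV (x axis, log scale), with the line of equal scores; points under the dotted line are listed at 0 in both libraries with UV. The 19 strong sites lie along the line (median log2 difference -0.08), while the 476 weak sites mostly lie far above it (median 10.49).

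Among sites of 0.9 and above, the largest difference between UV and no UV was in the middle class. NCSL01000037.1:32-70 on the plus strand scored 6285 and 3742 in the ime4 mutant, 1582 and 4277 in Pho92-HTP with UV, 1.66 and 0.984 without UV, and 0.103 and 0.0197 in untagged cells. Its no-UV level was 0.0452% of that with UV, a log2 difference of 10.99, while the other 7 middle sites were between 2.30 and 3.26. Of those, NCSL01000016.1:111287-111318 on the plus strand scored 665 and 697 in Pho92-HTP with UV, against 91.9 and 54.9 without UV, a log2 difference of 3.26. NCSL01000009.1:300850-300880, NCSL01000054.1:18421-18452 and NCSL01000031.1:48201-48231, all on the minus strand, made up the rest of the largest 5. Of the 8 middle sites, 6 formed 3 pairs of near-equal profile.

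At the other end, NCSL01000002.1:322704-322739 on the plus strand had the lowest ratio of UV to no UV among sites of 0.9 and above. It scored 138 and 89.1 in the ime4 mutant, 40.8 and 185 in Pho92-HTP with UV, 119 and 240 without UV, and 0.00898 and 0.00327 in untagged cells. The log2 difference of -0.96 lay within the spread of replicates, since the pair of values with UV overlapped the pair without. NCSL01000011.1:300989-301020 on the minus strand followed, with 647 and 2132 in Pho92-HTP with UV, against 1658 and 1835 without UV (log2 difference -0.57), and 3 sites of the group of 4 near-equal profiles made up the rest of the lowest 5.

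At 24 sites no peak was listed in either library of Pho92-HTP with UV. At 17 of them both of those libraries had a peak on the same strand within 50 nt, at 1 site a single library did, and at 6 neither did. The strongest of the 24, NCSL01000008.1:1221-1250 on the minus strand, scored 0.370 and 0.278 without UV and was listed at 0 in all 4 irradiated libraries of tagged cells. Within 50 nt of it, however, peaks of 25426 and 9036 were listed in the ime4 mutant and of 9934 and 18841 in Pho92-HTP with UV, so this site lay beside a tall peak. Of the 24, 21 had a mean no-UV score below 0.009 and 14 were listed in at least 1 ime4 mutant library. The number listed in none of the 6 irradiated libraries was 7.

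The second comparison asked how far the recovery without UV depended on the tag. Every untagged library was irradiated, so the tag and the light differ together here, and their parts cannot be told apart. At all 19 strong sites and all 8 middle sites both no-UV libraries were above both untagged ones. The strong sites had a median of 707 and 748 without UV, against 0.633 and 0.205 in untagged cells, a median log2 difference of 12.39 (10.54 to 14.93). The middle sites had a median of 1.70 and 0.967 without UV, against 0.00308 and 0.000242 in untagged cells, a median log2 difference of 11.98.

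The weak sites stood closer to the untagged level. Both no-UV libraries were above both untagged libraries at 333 of the 476, and for all 503 sites the count was 360, against 31.0% over the 1225 regions listed in at least 2 of these libraries. Both were below at 24 sites, against 24.4% over those regions, and 119 overlapped. Only a region with a peak in both no-UV libraries can be above, which is what the rule asked for. The sites were 360 of the 380 regions above, so nothing is read from these shares. The median log2 difference fell class by class with the no-UV score, being 6.10, 5.67, 3.96, 2.38 and 1.10 from the class of 0.09 to 0.9 down to the class below 0.00009. As the classes are built from the no-UV score, this order is part of how they were made.

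Absence from the untagged lists was common but not general. Of the 503 sites, 207 were listed in neither untagged library, 126 in 1 and 170 in both. The regions found in a single no-UV library were listed in neither untagged library at 3830 of 4271 and in both at 78. Among the sites listed in neither, the 5 with the highest no-UV score were weak. They were NCSL01000014.1:113760-113791 on the minus strand, NCSL01000026.1:2112-2144 on the plus strand, NCSL01000061.1:26842-26881 on the plus strand, NCSL01000023.1:138563-138594 on the plus strand and NCSL01000013.1:77947-77978 on the plus strand. The highest of them, NCSL01000014.1:113760-113791, scored 0.395 and 0.113 in the ime4 mutant, 0.0504 and 0 in Pho92-HTP with UV, and 0.0523 and 0.102 without UV. NCSL01000061.1:26842-26881 scored 0.273 and 0.451 in the ime4 mutant, 0.115 and 1.15 in Pho92-HTP with UV, and 0.0415 and 0.0127 without UV. Only this site of the 5 was listed in both libraries of Pho92-HTP with UV.

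Untagged cells held the strong sites too, at a low level. In unscaled heights the median summit of the 19 was 8025 and 6046 read equivalents in the ime4 mutant, 4692 and 3188 in Pho92-HTP with UV, 8507 and 6625 without UV, and 157 and 108 in untagged cells. They nevertheless filled 32.9% and 33.0% of the untagged heights outside contig NCSL01000092.1. Only 2 sites of the 503 scored above 0.9 in both untagged libraries, and 185 did so in both ime4 mutant libraries.

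Under irradiation most of the sites were higher with the tag than without it. This comparison used only the 6 irradiated libraries, which took no part in choosing the sites. In limma over 56810 regions, with Benjamini-Hochberg adjustment and a threshold of 0.05, 388 of the 478 sites that could be tested were higher in Pho92-HTP than in untagged cells, or 81.2%, against 30.4% of all regions. None was lower, either after adjustment or at an unadjusted p under 0.05, against 0.00528% of all regions. A site listed in neither untagged library could enter this fit only through tagged libraries, and its untagged pair of 0 added no spread. This was the state of 207 of the 503 sites and of 102738 of all 107088 regions. For such sites the call is no independent test of the tag, here or for the ime4 mutant below. The strong and middle sites were higher in 27 of 27 cases, by a log2 difference of 10.48 to 14.90 at the strong sites, with limma adjusted p between 0.00131 and 0.0159.

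Among taller regions the share for Pho92-HTP was near that of all regions, though the filter itself favours such calls. Where a score above 0.9 was required in at least 2 libraries, limma called 256 of 270 sites higher in Pho92-HTP than in untagged cells, or 94.8%, against 94.6% of all 1009 such regions. The same comparison for the ime4 mutant gave 360 of 478 sites higher than in untagged cells (75.3%, limma, against 17.6% of all regions), and again 27 of 27 strong and middle sites. At the same height 244 of 270 sites were higher in the ime4 mutant, against 75.7%. Only 2 sites scored above 0.9 in both untagged libraries, so nearly all passed this filter with the help of a tagged library. A high score with the tag was thus part of the filter, and the shares at this height are no test of the tag. None of the 478 was lower in the ime4 mutant in limma, either after adjustment or at an unadjusted p under 0.05, against 0.00352% of all regions. These calls depend on the scaling. With raw scores, which use no spike-in, limma still called 19 of the 19 strong sites higher than in untagged cells in both tagged strains. With each library scaled to its own total or to a trimmed mean, 0 of the 19 strong sites were higher than in untagged cells in limma for either tagged strain. For the ime4 mutant the count of 19 was 8 without its replicate 1 and 11 without its replicate 2.

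The third comparison asked how far the sites depended on IME4. None of the strong sites passed the test. In limma, 0 of the 19 were called lower or higher in the ime4 mutant than in Pho92-HTP, and 0 had an unadjusted p under 0.05. Their median was 2542 and 812 in the ime4 mutant, against 449 and 1375 in Pho92-HTP, and the log2 differences ran from 0.27 to 1.25 with a median of 0.63 (SE 0.66 to 1.02, limma adjusted p 0.532 to 0.941). Replicate 1 was the higher of the pair at 19 of 19 strong sites in the ime4 mutant and at 0 of 19 in Pho92-HTP, with median gaps of 1.00 and 1.60 on the log2 scale. In normalized scores the groups overlapped at every strong site, and the largest difference was smaller than the median gap between the Pho92-HTP replicates. This overlap too depends on the scaling. In raw scores the strongest site had 312600 and 260350 in the ime4 mutant, against 139280 and 71484 in Pho92-HTP.

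The middle sites were alike in this. Their median was 69.3 and 19.1 in the ime4 mutant, against 11.03 and 26.0 in Pho92-HTP, with log2 differences of 0.83 to 1.52. At 3 of the 8 both ime4 mutant libraries were above both Pho92-HTP libraries, and no middle site passed the threshold in limma (adjusted p 0.460 to 0.761). With 2 libraries a group, a call that misses the threshold does not show that the levels were equal.

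Loss of signal in the ime4 mutant was found among the weak sites. Over all 473 sites that could be tested, limma called 42 lower in the ime4 mutant, or 8.88%, against 0.606% of all 56317 regions, and 3 higher, against 0.0195%. At an unadjusted p under 0.05 in limma the counts were 106 lower and 11 higher, against 6811 and 1604 of all 56317 regions. At this unadjusted bound the lower share was above that of all regions and the higher share was not, while after adjustment both were above. Of the 42, 41 had a mean no-UV score below 0.009, where 388 sites were tested. The 42 had medians of 0.0672 and 0.0767 in the ime4 mutant, 156 and 90.7 in Pho92-HTP, 0.000352 and 0.000188 without UV, and 0.0000996 and 0 in untagged cells. Their log2 differences ran from -22.58 to -5.73, and 7 were listed at 0 in both ime4 mutant libraries. Those 7 entered the fit only through the Pho92-HTP pair, where they were high. All 3 higher calls entered it only through the ime4 mutant pair, with 0 in both Pho92-HTP libraries. A pair listed at 0 adds no spread, so these calls are no independent test of a change. The number of calls rests on the scaling and on the replicates. In limma it was 0 with raw scores, 20 with library totals and 1 with trimmed-mean scaling, against 86 to 101 lower and 13 to 22 higher with any 1 of the 4 libraries left out.

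The share of lower calls depended on which regions were compared. With the score above 0.9 in at least 2 of these 4 libraries, limma called 75 of 270 sites lower in the ime4 mutant, or 27.8%, against 60.0% of all 1007 such regions, and 2 higher, against 0.794%. The median log2 difference was 0.27 over these 270 sites and -7.02 over the 1007 regions. In the wider fit it was 0.20 over the 473 sites and -0.61 over the 56317 regions. The gap between the sites and all regions was tested in neither fit.

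Within the sites, 41 of the 42 lower calls lay in the 3 classes of lowest no-UV score. In the wider fit, limma called 0 of 27 sites of 0.9 and above lower in the ime4 mutant, 1 of 14 from 0.09 to 0.9, 0 of 44 from 0.009 to 0.09, 12 of 114 from 0.0009 to 0.009, 22 of 182 from 0.00009 to 0.0009 and 7 of 92 below 0.00009. At the authors' height the counts in the same order were 0 of 27, 1 of 14, 2 of 33, 18 of 88, 39 of 87 and 15 of 21. The shares at that height are no measure of how often faint sites fell, because a site that is low in the ime4 mutant passes the filter through its pair of Pho92-HTP libraries alone. No trend over the classes was tested, and the no-UV libraries took no part in either fit.

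**Figure D4:**
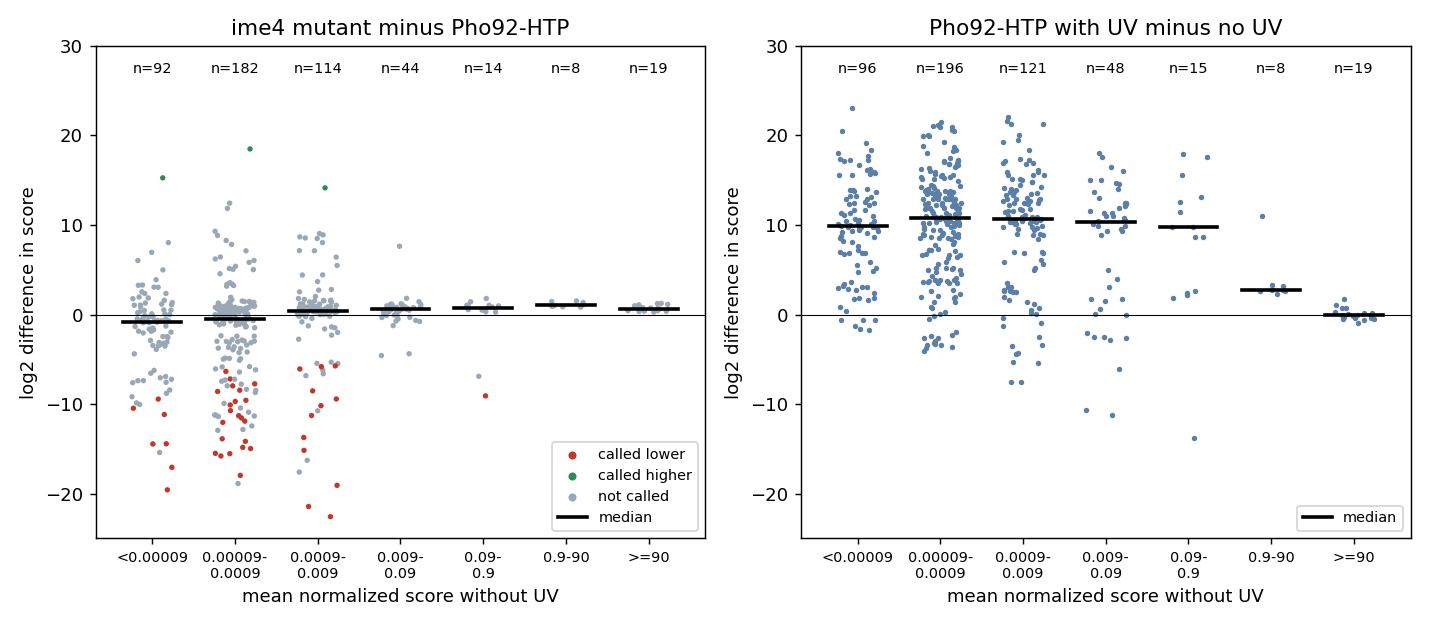
Log2 difference in score of the ime4 mutant minus Pho92-HTP (left, sites tested by limma) and of Pho92-HTP with UV minus no UV (right, all sites), by class of mean no-UV score (x axis); each point is a site and the bar is the class median. In the left panel 41 of the 42 sites called lower have a no-UV score below 0.009, and in the right panel only the class of 90 and above is centred near 0.

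The largest fall was at NCSL01000087.1:2436-2478 on the plus strand. It was listed at 0 in both ime4 mutant libraries, against 244 and 83.6 in Pho92-HTP, with 0.00359 and 0.000352 without UV and 0.000230 and 0 in untagged cells (log2 difference -22.58, SE 1.14, limma adjusted p 0.0354). Since a log2 value against a listed 0 depends on the pseudocount, its size is not a bound. The site entered the fit only through the Pho92-HTP pair, where it was high. The ime4 mutant pair added no spread, so the SE and p understate the uncertainty. At each of the 5 largest falls the difference kept its sign with raw scores and with trimmed-mean scaling but was no longer called in limma (adjusted p 0.303 and 0.0503 at NCSL01000087.1:2436-2478). NCSL01000005.1:130475-130513 on the minus strand was likewise listed at 0 in both ime4 mutant libraries, against 86.1 and 48.8 in Pho92-HTP. Within 50 nt of it, however, the ime4 mutant had peaks of 56.5 and 61.6, so RNA was still recovered next to this site. The tallest Pho92-HTP peaks in the same span were 86.1 and 2164. With peaks within 50 nt merged, the log2 difference there was -5.78 (limma adjusted p 0.00843).

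The strongest site without UV among the 42 was NCSL01000027.1:112217-112254 on the minus strand, singled out after its values were seen. It scored 48.1 and 56.0 in the ime4 mutant, 47403 and 16797 in Pho92-HTP with UV, 0.109 and 0.109 without UV, and 0.0364 and 0.00501 in untagged cells. The ime4 mutant libraries were far below both Pho92-HTP libraries and still well above the controls (log2 difference -9.09, SE 0.67, limma adjusted p 0.0369). The other named falls, at NCSL01000021.1:63666-63705, NCSL01000011.1:89616-89660 and NCSL01000025.1:85475-85527, all on the plus strand, passed the same test. NCSL01000021.1:63666-63705 scored 0 and 0.000366 in the ime4 mutant, against 105 and 52.1 in Pho92-HTP, with 0.0000379 and 0.0000165 without UV (log2 difference -19.58, SE 1.65, limma adjusted p 0.0399). NCSL01000025.1:85475-85527 scored 0.000208 and 0 in the ime4 mutant, against 17.7 and 19.6 in Pho92-HTP, with 0.000481 and 0.000149 without UV. At these sites the ime4 mutant had nothing above 0.00259 within 50 nt. At NCSL01000011.1:89616-89660, listed at 0 in both ime4 mutant libraries, against 14.8 and 10.8 in Pho92-HTP, the ime4 mutant had 0.0726 and 2.85 within 50 nt.

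The 3 higher calls lay beside peaks of Pho92-HTP. NCSL01000052.1:41431-41473 on the minus strand scored 17.0 and 4.17 in the ime4 mutant and was listed at 0 in both Pho92-HTP libraries, which had 12.2 and 4.46 within 50 nt. NCSL01000010.1:281484-281519 and NCSL01000032.1:51222-51261, both on the plus strand, were also listed at 0 in Pho92-HTP, with 17.8 and 21.7 within 50 nt of the first and 959 and 211 within 50 nt of the second. When peaks within 50 nt were merged, which gave a set of 594 sites, 0 were called higher in limma. The log2 differences at NCSL01000010.1:281484-281519 and NCSL01000032.1:51222-51261 were then -4.13 and -8.31.

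By plain ranks, both ime4 mutant libraries were below both Pho92-HTP libraries at 137 sites, against 27.7% of all regions, and above at 67, against 15.2%. By the authors' bound of 0.9, 231 sites passed in both Pho92-HTP libraries, and of these 155 also passed in both ime4 mutant libraries and 69 in neither. All 69 were weak sites. Over all regions that passed in both Pho92-HTP libraries, 638 of 907 passed in neither ime4 mutant library, and among regions with no no-UV peak the count was 388 of 429.

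**Figure D5:**
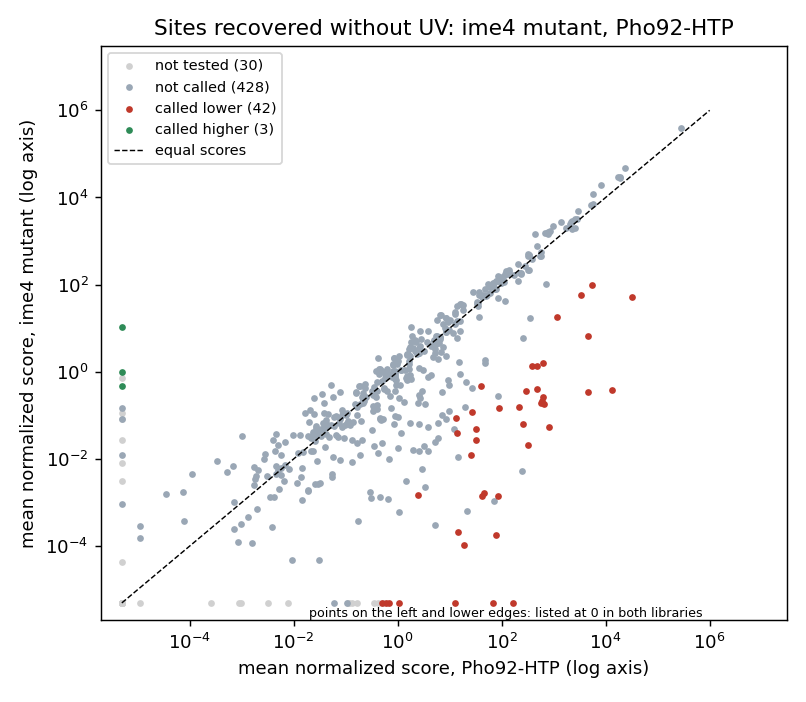
Mean normalized score of each site in the ime4 mutant (y axis, log scale) against Pho92-HTP with UV (x axis, log scale), with the line of equal scores and the limma calls in colour. Most points follow the line up to the strongest site, and the 42 sites called lower lie well below it.

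The sites were spread over the genome. They lay on 75 contigs, 264 of 503 on the plus strand, with the most on NCSL01000001.1 (27), NCSL01000002.1 (26), NCSL01000005.1 (25) and NCSL01000008.1 (24). The next site on the same strand lay within 50 nt for 64 sites and within 1000 nt for 144, so neighbouring weak sites can belong to one stretch of RNA. No site had a no-UV peak on the opposite strand, and 19 and 7 had one in the libraries of Pho92-HTP with UV. In all 8 libraries 160 sites were listed, in both ime4 mutant libraries 416, and in both libraries of Pho92-HTP with UV 415.

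The rule has no score threshold, so the regions just outside it are those found in 1 no-UV library. The strongest was NCSL01000035.1:35572-35600 on the minus strand, with 0.340 in replicate 1 only. The next, NCSL01000035.1:35539-35565 on the minus strand, scored 0.131 in replicate 2 only and lay beside it. NCSL01000002.1:169278-169304 on the minus strand scored 0.108 in replicate 2 only. Every region at or above 0.9 outside contig NCSL01000092.1 was thus found in both no-UV libraries, while the weakest sites inside the rule had summits of 1 read in each.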

How the data were processed

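Peak lists of 8 CRAC libraries were analysed, 1 list per library and none pooled. The submitters' processing notes name cutadapt and Bowtie2 2.4.1; the sources used here do not name the peak caller. Per the file headers each peak carries a score and a normalized score, the score times 1 spike-in factor, which the authors give as a ratio to Pho92-HTP replicate 1. From the values, the score equals squared height over width, with height smoothed by a Gaussian of SD 15 nt. Read totals are unknown, so no counting error is given. Coordinates are copied from the lists, whose first base (0 or 1) is unstated.

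A site's value in a library is the summed score of same-strand peaks overlapping it by at least 1 nt. Regions with a listed peak in at least 2 libraries of a fit were tested with limma 3.58.1 (R 4.3.3, mean-variance trend) on log2(normalized score + 2.28e-05), percentile 5 of all normalized scores, and p-values were adjusted by Benjamini-Hochberg over all tested regions. A count test was planned only for counts, and the unit is a score. The fit of the ime4 mutant against Pho92-HTP used those 4 libraries, and fits against untagged cells used the 6 irradiated ones. A group listed at 0 in both libraries contributes no spread to SE and p. The text calls 2 libraries of a group replicates as the labels do; p-values measure only their spread.

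The sites named are the 10 strongest without UV, the 5 largest called changes each way without IME4, the 5 largest and 5 smallest UV differences at 0.9 and above, the 5 strongest unlisted in untagged cells, the 3 strongest in untagged cells and the 3 regions just outside the rule; where near-equal sites recur they are given as a group or a range. Sites, classes and lists were chosen with earlier results of these data known. The fit was also run on simulated scores in which every library had a value. That run does not bear on calls where a group had no listed peak. Alternatives were another pseudocount, filter, scaling, merging distance, overlap and fit, and each replicate left out. No sequence, gene name or annotation is given, since the reference at hand was not of the SK1 build. Tables and plots were made with pandas 2.3.3, numpy 2.4.6 and matplotlib 3.10.9 in Python 3.11.15.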

Additional observations from a re-analysis of the deposited data

How the results depend on the processing

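The count of sites lower in the ime4 mutant (42 in limma) was 70 and 21 with the pseudocount at percentile 25 and 1, 75 with the authors' 0.9 filter, 0 with raw scores, 20 with library-total and 1 with trimmed-mean scaling, 86 with all 8 libraries in 1 fit, 111 with peaks within 50 nt merged, and 86 to 101 with 1 replicate left out. The count higher (3) was 5 and 1 at those percentiles, 0 with raw scores, 1 and 0 with those scalings, 9 with all 8 libraries, 0 after merging and 13 to 22 with 1 replicate left out. With the replicate number as a block the counts were 89 lower and 16 higher; same-numbered libraries did not deviate together (correlations of -0.00562, 0.0154 and 0.0124), so the block is not read as a pairing. Merging gave 594 sites in place of 503, so counts after merging, here and below, are not of the same sites. It reversed NCSL01000010.1:281484-281519 to -4.13 and NCSL01000032.1:51222-51261 to -8.31. The median over all regions in this comparison was -0.61, and -0.14, -0.05 and 0.21 with raw, library-total and trimmed-mean scaling.

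Sites higher in Pho92-HTP than in untagged cells (388) numbered 256 with the 0.9 filter, 144 and 150 with library-total and trimmed-mean scaling, and 348 to 388 with 1 replicate left out; lower ones (0) numbered 6 and 6, and 0 to 2. For the ime4 mutant the higher count (360) was 124 and 120 with those scalings and 550 in the merged set of 594 sites. The lower count (0) was 3 and 4 with those scalings. The 19 strong sites higher than untagged became 0 in both strains with those scalings, and 14 to 19 (Pho92-HTP) and 8 to 19 (ime4 mutant) with 1 replicate left out.

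Sites lower with UV than without (32) numbered 58 with raw scores, 95 with library totals, 14 in the merged set of 594 sites and 58 to 85 with 1 replicate left out. The median UV difference of strong sites was -2.19 with raw scores and -6.91 with library totals, and that of sites below 90 (10.43) was 8.42 and 3.96. Requiring 0.9 in both no-UV libraries left 24 sites. Counting near-equal profiles once, added after seeing the data, left 11 of 19 strong sites. The cause of these shifts was not tested. Fewer sites pass the 0.9 filter, and leaving out a replicate leaves 1 library in its group, assumed to vary like the others. Shallow no-UV and untagged libraries limit every weak site.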

Other observations

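A few sites lay at the very start of a contig. Of the 503, 12 began within 100 nt of it (2.39%, against 0.115% of all 107088 regions), 11 on the plus strand and 1 on the minus strand. NCSL01000006.1:33-71 scored 3609.97 and 1878 in the ime4 mutant, 609 and 3701 in Pho92-HTP with UV, 0.0730 and 0.0455 without UV, and 0.0881 and 0.00489 in untagged cells. NCSL01000016.1:40-75 went against the rest, with 0.00146 and 0.00557 in the ime4 mutant, 0.00310 and 0.000523 in Pho92-HTP with UV, 0.0143 and 0.00609 without UV, and 0 in both untagged libraries. Both were chosen after their values were seen, and what lies at these contig starts is not annotated here.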
